A study of Macaca fascicularis with 64 samples.

Results

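The 10 genes described here code for receptors through which hormones and transmitters restrain or tune the islet: 4 somatostatin receptors (SSTR1, SSTR2, SSTR3 and SSTR5), the ghrelin receptor GHSR, the leptin receptor LEPR, the growth hormone receptor GHR, the prolactin receptor PRLR, the α2A-adrenergic receptor ADRA2A and the melatonin receptor MTNR1B. They were taken by name from the 21041 macaque genes counted in each cell, and all 10 were among them. Their levels were compared between α-, β-, δ- and PP-cells and between young and old cynomolgus monkeys (Macaca fascicularis).

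Islets were isolated from a part of the pancreas near the tail of 8 young (age 4 to 6 years) and 8 old (18 to 21 years) animals, with 4 females and 4 males at each age. Cells were picked singly by mouth pipette and sequenced in 4 pooled libraries per monkey, 64 in all, with a unique molecular identifier (UMI) on each captured transcript. Of 6141 cells, 5908 (2957 young, 2951 old) had over 800 genes and over 10000 UMIs, and each was assigned to the type whose hormone was highest in it: 4503 α-cells (GCG), 1219 β-cells (INS), 112 δ-cells (SST) and 74 PP-cells (PPY). One monkey was processed per day, so that animal and day cannot be told apart.

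Somatostatin from δ-cells acts on neighbouring α- and β-cells through receptors coupled to inhibitory Gi/o proteins, which lower cAMP and open potassium channels. The α2A-adrenergic and melatonin receptors use the same class of G protein, whereas the ghrelin receptor is linked mainly to Gq. The leptin, growth hormone and prolactin receptors belong to the cytokine receptor family and signal through JAK kinases and STAT factors. In the islet these receptors are best known for holding back insulin and glucagon secretion and, for prolactin and growth hormone, for β-cell growth.

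Each level below is in CPM, the summed UMIs of a gene in a monkey's cells of a type per 1000000 UMIs of macaque genes, and a monkey was used for a type only with at least 5 cells of it. This left 16 monkeys for α-cells, 16 for β-cells, 11 for δ-cells (7 young, 4 old) and 6 for PP-cells (2 young, 4 old). The total per monkey and type was between 14089079 and 27439498 UMIs in α-cells, between 622124 and 19086370 in β-cells, between 206257 and 706643 in δ-cells and between 208618 and 1498899 in PP-cells. With the 4 hormones left out, 5 of 5 listed δ-cell markers, 6 of 6 for β-cells and 5 of 6 for PP-cells were highest in their own type, the exception being AQP3 for PP-cells, which was higher in α-cells. The hormones were found in every type. GCG in β-cells, δ-cells and PP-cells stood at 25.2%, 33.0% and 46.0% of its α-cell level, and 64.3% of δ-cells and 89.2% of PP-cells had a leading hormone under 4 times the next one.

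The libraries reuse 96 cell barcodes, of which 93 occurred in every library, and no pair of cells had identical counts. In 4 libraries that held 5 cells with between 3595 and 6807 UMIs of GHRL, the ghrelin gene, all 368 other cells had a GHRL UMI, at 1218 CPM, against 6.65% of 5535 cells and 4.36 CPM in the other 60 libraries. Within single libraries of these 60 the share of cells ran from 0% to 87.8%, with a median of 0%. For the low levels below, SST in the same cells is therefore given beside the receptor.

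LEPR was the receptor that most clearly marked a type. It was detected in 93 of 112 δ-cells (83.0%, exact 95% interval 74.8 to 89.5), against 5.53% of α-cells, 4.10% of β-cells and 18.9% of PP-cells, although δ-cells had the lowest median depth (43776 UMIs, against 64894 in α-cells, 74425 in β-cells and 45772.5 in PP-cells). In δ-cells of the 11 monkeys LEPR ranged from 145 to 807 CPM with a median of 499. In α-cells of the 16 monkeys it lay between 0 and 7.79 CPM with a median of 1.09, and in β-cells between 0 and 8.56 CPM with a median of 0.535. The lowest δ-cell value was thus far above every α- and β-cell value, and LEPR was higher in δ-cells in 11 of 11 monkeys against α-cells and in 11 of 11 against β-cells.

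The log2 fold change of LEPR in α-cells minus δ-cells was -7.92 (SE 0.45, edgeR quasi-likelihood test, adjusted p = 7.25e-20), and β-cells minus δ-cells gave -8.44 (SE 0.48, adjusted p = 9.47e-20). Over all 12899 genes tested, 23.2% were called between α- and δ-cells and 19.8% between β- and δ-cells, at an adjusted p under 0.05. Against the mean of the other types, the calls among the 4 receptors that could be tested were LEPR lower in α-cells, GHR and LEPR lower in β-cells, LEPR, GHSR and GHR higher in δ-cells and 0 in PP-cells. For GHSR the size of such a contrast is not defined, since it had 0 UMIs in PP-cells. Its SE was 24.5 in α-cells and 73.1 in β-cells. The contrasts of GHSR between δ-cells and α- or β-cells alone are given below. Of all genes, 17.9% were called higher and 3.26% lower in α-cells, 17.4% and 8.96% in β-cells, 4.40% and 11.2% in δ-cells, and 4.24% and 3.99% in PP-cells. α- and β-cells did not differ in LEPR beyond the spread left by the fit, which has a term for each monkey (0.53, SE 0.43, edgeR, adjusted p = 0.409).

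LEPR in PP-cells lay between these levels. Its values in the 6 monkeys were 0, 2.06, 10.8, 16.01, 24.0 and 51.0 CPM. LEPR in PP-cells was higher than in α-cells (α-cells minus PP-cells -3.74, SE 0.61, adjusted p = 3.25e-05, 6.61% of all genes called) and lower than in δ-cells (δ-cells minus PP-cells 4.18, SE 0.61, adjusted p = 2.19e-06, 10.3% of all genes called), and higher than in β-cells (β-cells minus PP-cells -4.26, SE 0.63, adjusted p = 1.27e-06, 17.2% of all genes called). With at least 10 cells per sum, which left 1 PP-cell sum, the contrasts kept their direction (α-cells minus PP-cells -3.44, δ-cells minus PP-cells 3.66) and did not pass (adjusted p = 0.157 and 0.1). Only 14 PP-cells had a LEPR UMI, and 2 of these, in 2 monkeys, held 21 and 14 of the 70 UMIs. LEPR in PP-cells was 4.61% of its δ-cell level, where SST was 0.975% and HHEX, a transcription factor gene of δ-cells, 0.269%. In the 18 PP-cells of libraries without a δ-cell LEPR stood at 4.12 CPM, and in the 56 PP-cells of libraries with at least 1 it stood at 22.9 CPM. The part of δ-cell transcripts in the PP-cell level was not tested.

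The LEPR level of α-cells was set beside the presence of δ-cells in the library. In 19 libraries with no δ-cell, α-cells had 0.791 CPM of LEPR, 19 of 1361 cells had a UMI and SST was at 83.7 CPM. In 45 libraries with at least 1 δ-cell, LEPR was at 2.30 CPM with a UMI in 7.32% of 3142 cells, and SST was at 933 CPM. Of the 19 libraries without a δ-cell 13 were from old animals, and by age the levels with and without a δ-cell were 3.42 and 1.23 CPM in young and 0.657 and 0.547 CPM in old animals. LEPR in α-cells was 0.465% of its δ-cell level, SST 0.792% and HHEX 0.544%. In β-cells the same shares were 0.196%, 0.577% and 0.127%, and 25 of the 79 LEPR UMIs lay in 1 cell with 3141 SST UMIs. Of the 592 LEPR UMIs of α-cells, 42.6% lay in 11 cells with 10 or more each. Of these cells 9 came from libraries with at least 1 δ-cell and had 33 to 4559 SST UMIs, 3 of them with an HHEX UMI and 3 with 10 or more UMIs of RBP4, a gene high in δ-cells. The other 2 came from libraries without a δ-cell and had 2 and 22 SST UMIs and no HHEX UMI.

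GHSR, the receptor for acylated ghrelin, had a similar but much sparser distribution. It was found in 40 of 112 δ-cells (35.7%, exact 95% interval 26.9 to 45.3), 32 of 4503 α-cells (0.711%), 4 of 1219 β-cells (0.328%) and 0 of 74 PP-cells, which allows a share of up to 4.05% (here and below, the limit at 0 is 3 counts of the total, not the bound of an exact interval). Across 11 monkeys GHSR in δ-cells ranged from 8.18 to 96.8 CPM with a median of 32.3 and was never 0. In α-cells it lay between 0 and 0.568 CPM, at 0 in 7 of 16 monkeys, and in β-cells between 0 and 2.03 CPM, at 0 in 12 of 16. No α- or β-cell value reached the lowest δ-cell value.

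The contrast of α-cells minus δ-cells for GHSR was -8.04 (SE 0.79, edgeR, adjusted p = 6.03e-11) and that of β-cells minus δ-cells was -8.47 (SE 0.88, adjusted p = 3.36e-10), while α- and β-cells did not differ beyond their spread (0.43, SE 0.75, adjusted p = 0.733). Against PP-cells no fold change can be given. The level of 54.3 CPM over all δ-cells was 69.7 times a floor of 3 counts over all PP-cells (0.780 CPM). That ratio is no lower bound, since the δ-cell level ranged from 8.18 to 96.8 CPM between monkeys. α-cells had 1 UMI of GHSR in all libraries without a δ-cell and 43 UMIs (0.193 CPM) in those with at least 1. GHSR was too low to be tested within α- or β-cells and passed the filter on low counts through its δ-cell level.

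Of the 40 δ-cells with GHSR, 37 also had LEPR, which was present in 83.0% of all δ-cells, and cells without LEPR were shallower (median 24268 UMIs, against 44450 in those with it). LEPR was present in 77 of the 88 δ-cells with an HHEX UMI and in 16 of the 24 without, the latter having a median depth of 24390.5 UMIs against 46943. A positive δ-cell had a median of 15 LEPR UMIs (1 to 99) and a median of 4 GHSR UMIs (1 to 40), whereas 197 of the 249 positive α-cells had a single LEPR UMI. Cells with at least 10000 UMIs of macaque genes were then thinned to 10000 UMIs. These were all δ- and PP-cells, 4464 α-cells and 1213 β-cells. LEPR was still seen in 72.3% of δ-cells, 12.2% of PP-cells, 1.25% of α-cells and 0.330% of β-cells, and GHSR in 24.1% of δ-cells, 0.157% of α-cells and 0.0824% of β-cells.

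**Figure D1:**
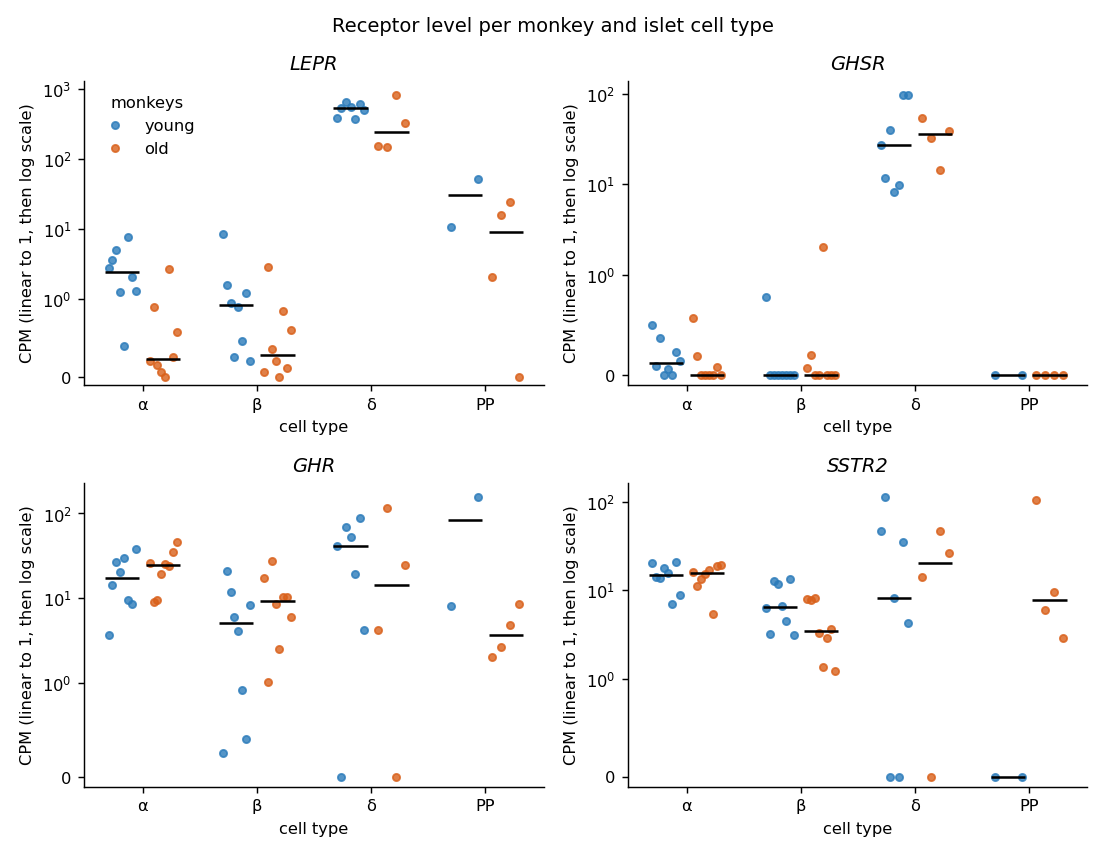
Level of LEPR, GHSR, GHR and SSTR2 (CPM, vertical axis linear to 1 and logarithmic above) in each monkey by cell type, young monkeys in blue and old in orange, with a black line at the median of each group. δ-cells stand above α- and β-cells for LEPR (145 to 807 CPM) and GHSR (8.18 to 96.8 CPM), whereas GHR and SSTR2 overlap between all 4 types.

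GHR was spread over all types. It was detected in 27.4% of α-cells, 17.8% of β-cells, 30.4% of δ-cells and 23.0% of PP-cells. In α-cells of 16 monkeys it ranged from 3.70 to 45.6 CPM (median 22.3), in β-cells from 0.260 to 27.8 CPM (median 7.24) and in δ-cells of 11 monkeys from 0 to 116 CPM (median 24.6). These ranges overlap, and the differences show within animals: GHR was higher in α- than in β-cells in 14 of 16 monkeys (α-cells minus β-cells 1.64, SE 0.53, edgeR, adjusted p = 0.0168, 25.0% of all genes called). It was higher in δ- than in β-cells in 8 of 11 monkeys (β-cells minus δ-cells -2.81, SE 0.71, adjusted p = 0.00318). GHR was higher in δ- than in α-cells in only 5 of 11 monkeys, and these 2 types did not differ beyond their spread (α-cells minus δ-cells -1.17, SE 0.66, edgeR, adjusted p = 0.197). That contrast passed with cells thinned to 10000 UMIs (-1.48, adjusted p = 0.0433) and with at least 10 cells per sum (-2.31, adjusted p = 0.00617). Without a term for the monkey, GHR in α-cells minus β-cells was 1.37 (adjusted p = 0.0541), and with a leading hormone at least 4 times the next the contrast of β- with δ-cells, which then had 2 sums, did not pass (-3.77, adjusted p = 0.224). The PP-cell values of GHR were 2.06, 2.67, 4.79, 8.07, 8.54 and 157 CPM, and the highest of them came from 1 cell that held 72 of all 89 UMIs.

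The levels of GHR and SSTR2 in β-cells stand beside α-cell transcripts in the same cells. β-cells had 38.0% of the α-cell level of GHR and 37.3% of that of SSTR2, where GCG itself was at 25.2%. Among the 384 β-cells with INS at least 4 times the next hormone, 9.38% had a GHR UMI and 8.59% an SSTR2 UMI, against 17.8% and 10.9% of all β-cells. Between α- and β-cells restricted in that way the log2 difference was 2.54 for GHR (adjusted p = 0.0296) and 1.59 for SSTR2 (adjusted p = 0.0335). The part of α-cell transcripts in the remaining β-cell levels was not tested.

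The spread of GHR in α-cells was compared between and within animals. The SD between monkey means was 1.07 on the log2 scale, and the median SD between the 4 libraries of a monkey was 0.591. Young female 1 had the lowest value at 3.70 CPM, with libraries between 1.73 and 6.06 CPM, and old male 4 the highest at 45.6 CPM, with libraries between 36.3 and 56.9 CPM. Other animals had wider libraries, with young male 3 between 0.229 and 22.9 CPM, old female 2 between 0 and 17.4 CPM and old male 2 between 10.6 and 46.3 CPM. For SSTR2 the 2 spreads were alike (0.577 and 0.538). Over all libraries without and with a δ-cell, GHR in α-cells was at 21.7 and 22.4 CPM, and SSTR2 at 13.97 and 15.4 CPM.

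**Figure D2:**
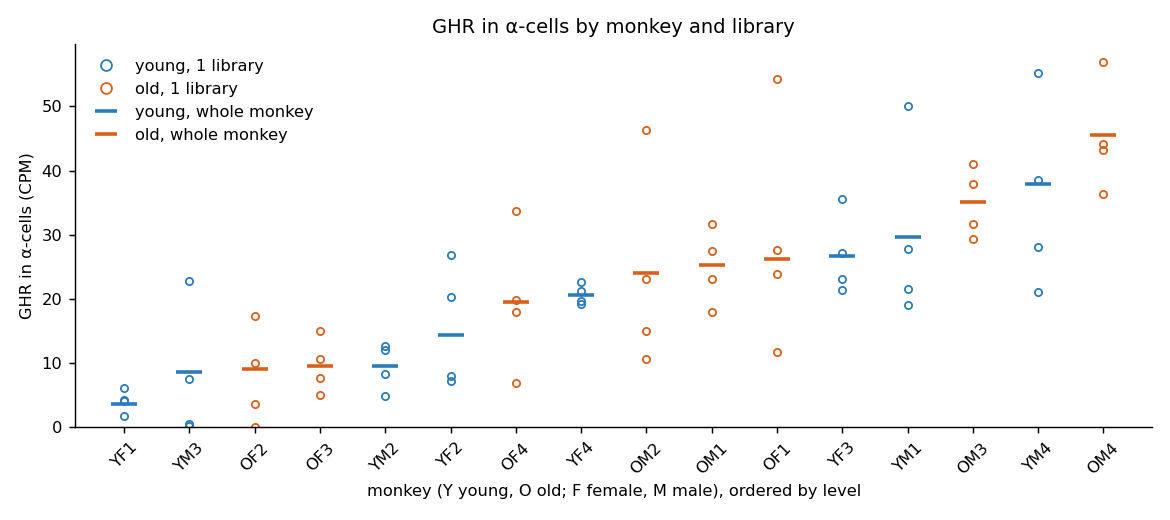
GHR in α-cells (CPM) in each of the 16 monkeys, ordered by level, with open circles for the 4 libraries of a monkey, a dash for all its α-cells, blue for young and orange for old animals. Monkey levels run from 3.70 to 45.6 CPM and young and old animals are mixed along the order.

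SSTR2 was the only somatostatin receptor with an appreciable level. It was found in 18.6% of α-cells, 10.9% of β-cells, 14.3% of δ-cells and 6.76% of PP-cells. In α-cells of the 16 monkeys it ranged from 5.44 to 21.1 CPM (median 15.6), in β-cells from 1.21 to 13.5 CPM (median 5.36) and in δ-cells of 11 monkeys from 0 to 114 CPM (median 14.2), with 3 monkeys at 0. SSTR2 was higher in α- than in β-cells in 16 of 16 monkeys, by 1.32 on the log2 scale (SE 0.50, edgeR, adjusted p = 0.0428). The adjusted p rose to between 0.0513 and 0.0871, with log2 differences of 1.19 to 1.33, when any of 9 animals was left out (young females 1 and 2, young males 2 and 4, old female 4 and old males 1 to 4), and it was 0.0918 (difference 1.21) without cells above the 95th percentile of UMIs and 0.358 (1.47) with α- and β-cells reduced to the number of δ-cells. δ-cells did not differ beyond their spread from α-cells (α-cells minus δ-cells -0.20, SE 0.65, adjusted p = 0.855) or from β-cells (β-cells minus δ-cells -1.53, SE 0.66, adjusted p = 0.0985), the latter contrast passing with DESeq2 (adjusted p = 0.013), without the monkey term (0.0059) and without old female 2 (0.0483) or young female 3 (0.0364). In PP-cells the 6 monkeys had 0, 0, 2.85, 6.004, 9.59 and 105 CPM, and 51 of the 63 UMIs came from 1 cell.

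Cells with markers of non-endocrine cells (at least 2 UMIs in at least 3 markers of acinar, ductal, stellate, endothelial, immune or Schwann cells) had an SSTR2 UMI in 21.9% and a GHR UMI in 32.6% of 485 cells, at a median depth of 81271 UMIs. The other 5423 cells had 16.3% and 24.8%, at 64687 UMIs. The levels were 12.9 and 12.8 CPM for SSTR2 and 14.3 and 19.8 CPM for GHR.

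SSTR1, SSTR3 and SSTR5 were near the limit of detection, and none of them passed the filter on low counts. SSTR1 had 16 UMIs in 5 α-cells of 4 monkeys and none in the other 3 types, which for the 1219 β-cells allows a share of cells with a UMI of up to 0.246%. SSTR3 had 25 UMIs in 5 α-cells and 11 in 4 β-cells, and none in δ- or PP-cells. SSTR5 had 66 UMIs in 11 β-cells, 4 in 2 α-cells, 1 in a δ-cell and 6 in 2 PP-cells. Of the 66 UMIs in β-cells, 51 came from 7 β-cells of young male 4, with 12 and 3 in old females 4 and 2 and 0 in the remaining 13 monkeys. Intervals and limits on shares cover counting error only.

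The 2 remaining inhibitory receptors were as sparse. ADRA2A, which mediates the restraint of insulin secretion by noradrenaline, had 39 UMIs in 12 β-cells of 5 monkeys (0.984%, exact 95% interval 0.510 to 1.71) and 13 UMIs in 4 δ-cells of 4 monkeys (3.57%, 0.982 to 8.89). In 4503 α-cells it had 0 UMIs, which allows a share of up to 0.0666%. Its pooled β-cell level was 41.1 times the floor of 3 counts over all α-cells, which is no lower bound on the difference. The ADRA2A UMIs of β-cells were not even over animals, with 25 of 39 in old female 4. MTNR1B had 0 UMIs in all 5908 cells, which for α-cells allows the same limit.

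PRLR was detected in 21 α-cells (68 UMIs, 13 monkeys), 7 β-cells (39 UMIs, 3 monkeys), 1 δ-cell (4 UMIs) and no PP-cell. In β-cells 21 UMIs came from old male 1, 12 from old male 2 and 6 from young male 1. Its pooled levels of 0.21 CPM in α-cells and 0.38 CPM in β-cells gave no order that the counts could carry, and prolactin itself (PRL) had 3 UMIs in 2 cells.

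**Figure D3:**
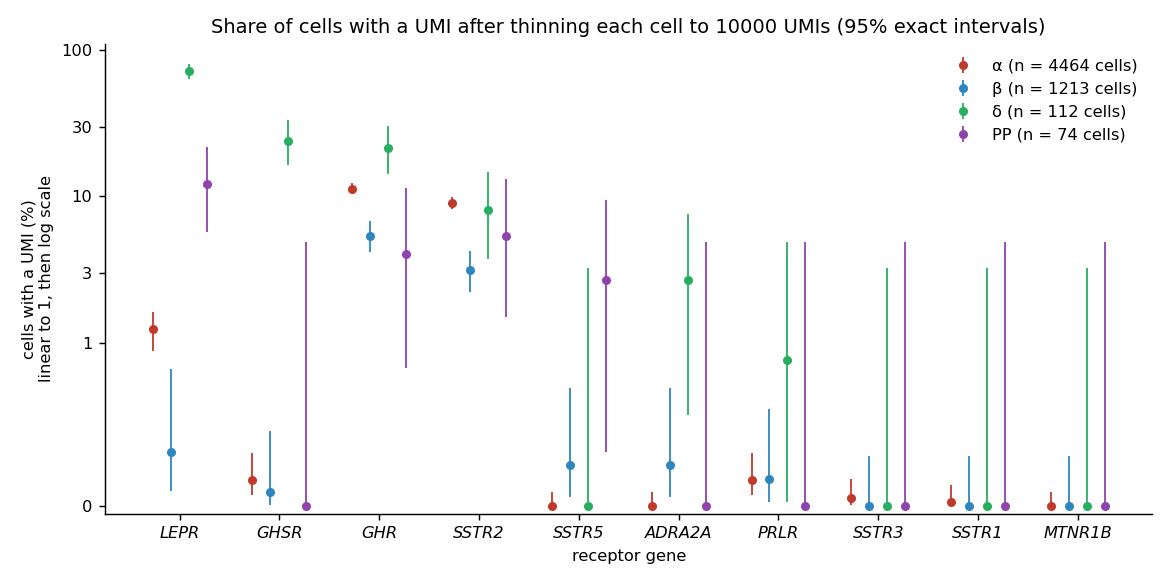
Percentage of cells with a UMI of each receptor gene by cell type (vertical axis linear to 1 and logarithmic above), with exact 95% intervals for counting error. Cells with at least 10000 UMIs of macaque genes were thinned to 10000 UMIs, and the rest were left out. LEPR reaches 72.3% and GHSR 24.1% of δ-cells, GHR and SSTR2 are found in all 4 types, and the other 6 genes stay under 3% in every type.

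The genes whose level was most like that of each tested receptor were sought over the 49 sums of monkeys and types and 12891 genes, by Pearson's r of log2 CPM, as a description. For GHSR they were SLC10A4 (0.93), HHEX (0.91) and CSGALNACT1 (0.90), and for LEPR they were SLC10A4 (0.87), RBP4 (0.85), which codes for a retinol carrier, and FFAR4 (0.83), a fatty acid receptor. SSTR2 had no close companion, the nearest being RCC2 (0.64), CDO1 (0.64) and CCDC39 (0.63). For GHR the nearest were GAL3ST1 (0.67), LZTR1 (0.60) and SLC25A22 (0.60). Sums of 1 monkey share libraries, and δ-cell sums share low totals and, for LEPR and GHSR, levels above those of the other types. The part of these in each r was not tested.

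Listed partners of the receptors were counted in the same fit, each type against the mean of the other 3. Among 3 tested ligands and ligand enzymes (of 9 in the files, SST left out since it defined δ-cells), MBOAT4, the enzyme that acylates ghrelin, was higher in α-cells (1.43, SE 0.47, adjusted p = 0.0220) and δ-cells (1.79, SE 0.58, adjusted p = 0.0285) and lower in β-cells (-3.94, SE 0.55, adjusted p = 1.55e-07). Its levels were 10.1, 0.588, 16.5 and 6.50 CPM in α-, β-, δ- and PP-cells, with 90 UMIs in 14 δ-cells. For α- and δ-cells the mean of the others includes the low β-cell level. The part of transcripts from cells with high GHRL in these levels was not tested. TH, the first enzyme of catecholamine synthesis, was higher in β-cells by 5.01 (SE 0.32, adjusted p = 3.22e-18), at 399 CPM against 4.24, 25.2 and 9.88 CPM in α-, δ- and PP-cells. Against a mean that includes β-cells, TH was lower in α-cells (-3.53, SE 0.36, adjusted p = 5.63e-11) and PP-cells (-1.79, SE 0.59, adjusted p = 0.0460), although the pooled PP-cell level was above that of α-cells. The third, GHRL, was not called in any type against the others. Leptin (LEP) had 8 UMIs in α-cells and 5 in β-cells.

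Of 12 other inhibitory receptors in the files, 3 were tested. PTGER3, a prostaglandin E2 receptor, was called higher in α-cells (adjusted p = 1.18e-08) and lower in β-cells (adjusted p = 0.00280), with 1445 UMIs in α-cells (4.48 CPM), 9 in β-cells (0.0882 CPM) and 2 each in δ- and PP-cells. NPY1R, a neuropeptide Y receptor, was higher in δ-cells by 3.02 (SE 0.67, adjusted p = 9.97e-04) and lower in β-cells (-2.96, SE 0.61, adjusted p = 1.96e-04), at 71.5, 15.5, 1.72 and 3.38 CPM in δ-, α-, β- and PP-cells. HTR1F, a serotonin receptor, was higher in α-cells (2.03, SE 0.53, adjusted p = 0.00380) and in β-cells (1.57, SE 0.52, adjusted p = 0.0189). Its levels were 7.83 and 6.04 CPM there, against 2.01 CPM in δ-cells (11 UMIs) and 1.04 CPM in PP-cells (4 UMIs).

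Of 14 Gi/o subunits, potassium channels and accessory proteins, 11 were tested. In α-cells 3 were higher and 1 lower, in β-cells 0 were higher and 3 lower, in δ-cells 1 was higher and 2 lower, and in PP-cells 2 were higher and 0 lower. The background of calls in either direction was 21.2%, 26.4%, 15.6% and 8.23% of 12899 genes for α-, β-, δ- and PP-cells, and the median log2 fold change of the 11 genes was 0.21, -0.34, -0.12 and 0.58, against 0.34, 0.20, -0.27 and -0.16 for all genes. MRAP2, an accessory protein of the melanocortin and ghrelin receptors, was higher in δ-cells (2.85, SE 0.28, adjusted p = 1.29e-11) and α-cells (1.52, SE 0.23, adjusted p = 1.40e-06) and lower in β-cells (-3.19, SE 0.27, adjusted p = 1.19e-13), at 186, 71.9 and 7.17 CPM. ARRB1 had the largest difference of this list in α-cells (2.09, SE 0.73, adjusted p = 0.0326), at 1.90, 1.09, 1.83 and 0.780 CPM in α-, β-, δ- and PP-cells. GRK2, a receptor kinase, was lower in α-cells (-0.74, SE 0.27, adjusted p = 0.0384). GNAI1, an inhibitory α subunit, was lower in β-cells (-1.39, adjusted p = 1.26e-06) and higher in PP-cells (1.23, adjusted p = 0.00396), and GNAO1 was higher in α-cells (0.86, adjusted p = 0.00478) and lower in δ-cells (-1.19, adjusted p = 0.00346).

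Of 17 genes of cytokine-receptor signalling in the files, 15 were tested, with 2 higher and 1 lower in α-cells, 4 and 1 in β-cells, 1 and 0 in δ-cells and 0 and 1 in PP-cells. Calls in either direction covered 21.2%, 26.4%, 15.6% and 8.23% of all 12899 genes in these types, so the counts are no result about this list. PTPN1, a phosphatase that acts on JAK2 downstream of the leptin receptor, was higher in δ-cells (1.35, SE 0.28, adjusted p = 4.28e-04) and β-cells (1.15, SE 0.24, adjusted p = 1.99e-04) and lower in PP-cells (-2.24, SE 0.43, adjusted p = 3.86e-04). SOCS2, a feedback inhibitor of growth hormone signalling, was higher in α-cells (1.62, SE 0.30, adjusted p = 4.64e-05), IL6ST was higher in β-cells (1.02, SE 0.17, adjusted p = 8.13e-06) and TYK2 was lower there (-1.36, SE 0.39, adjusted p = 0.00693). IRS2 was called higher in α-cells, with 538 UMIs there, 36 in β-cells, 3 in δ-cells and 0 in PP-cells. With 0 UMIs in PP-cells the size of its contrast is not defined. LEPROT, which in human shares its promoter with LEPR, was lower in α-cells (-0.92, SE 0.21, adjusted p = 9.41e-04) but was present in all types, at 40.9, 76.1, 92.6 and 53.5 CPM in α-, β-, δ- and PP-cells. In the RefSeq gene table of the assembly T2T-MFA8v1.1, which is not the one used for counting, the LEPR and LEPROT genes did not overlap and SSTR2 overlapped SLC39A11. LEPR, GHR, PRLR, SSTR5, ADRA2A and MTNR1B each overlapped at least 1 gene without a symbol. How reads in such shared stretches were counted, or whether they were lost, was not checked, and the limits on shares above do not cover it. SSTR1, SSTR3 and GHSR overlapped none.

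No receptor changed with age by the test. In α-cells, where 3 of the 10 could be tested, in β-cells (2), δ-cells (4) and PP-cells (1), none was called between old and young monkeys, and of all genes tested 0%, 0.0470%, 0% and 0% were called. At an unadjusted p under 0.05 there were 886 genes in α-cells, 589 in β-cells, 209 in δ-cells and 394 in PP-cells, and among the receptors there was 1, LEPR in α-cells. DESeq2 also called no receptor. None of the listed partners was called with age in α- or β-cells.

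LEPR in α-cells had the largest age difference of the tested receptors, at -2.42 (SE 0.84, unadjusted p = 0.00981, edgeR, adjusted p = 0.695). The 8 young monkeys had 0.398 to 7.79 CPM (median 2.43) and the 8 old ones 0 to 2.72 CPM (median 0.234). The groups overlapped through old male 2, at 2.72 CPM, and young male 1, at 0.398 CPM. The young animals also had more δ-cells (70 against 42, median 8.5 against 4.5 per monkey) and more SST in their α-cells (median 659 against 328 CPM), while HHEX in α-cells had medians of 1.36 and 0.416 CPM. In libraries with at least 1 δ-cell LEPR in α-cells was at 3.42 CPM in young and 0.657 CPM in old animals, with SST at 1132 and 638 CPM and HHEX at 2.59 and 3.36 CPM. In libraries with no δ-cell it was at 1.23 CPM (6 young libraries) and 0.547 CPM (13 old libraries), with SST at 63.6 and 94.9 CPM and HHEX at 0.781 and 0.0469 CPM. Of the 11 α-cells with at least 10 LEPR UMIs, 10 were from young animals. Without these cells the levels were 1.61 CPM in young and 0.449 CPM in old α-cells. The part of δ-cell transcripts in the age difference was not tested.

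**Figure D4:**
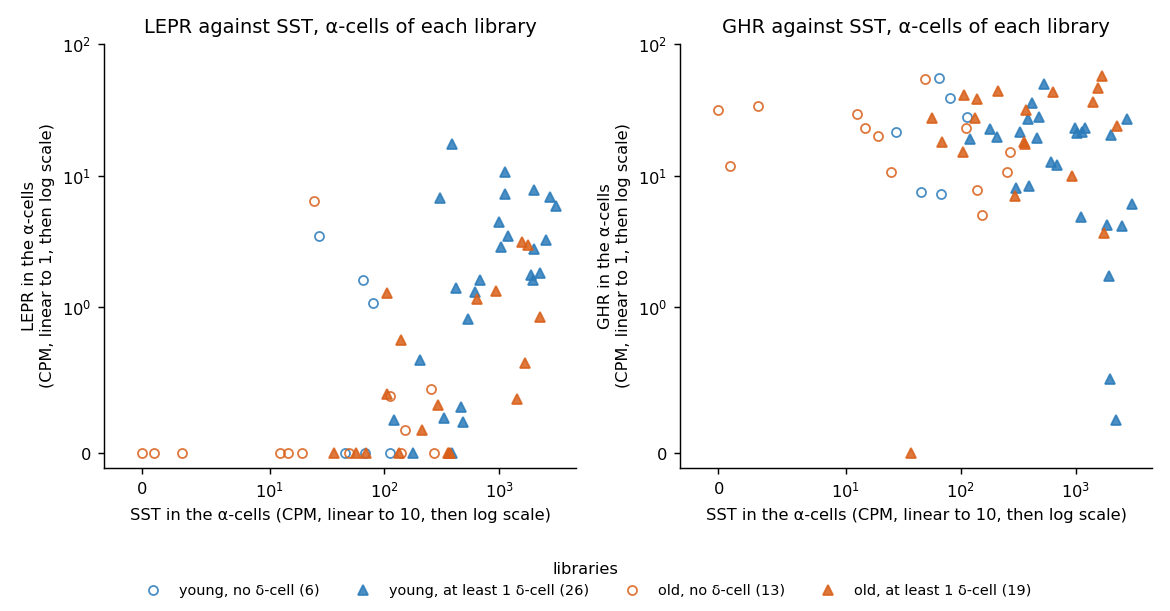
LEPR (left) and GHR (right) in the α-cells of each of the 64 libraries against SST in the same α-cells, all in CPM with axes linear near 0 and logarithmic above, for libraries with at least 1 δ-cell (filled triangles) and none (open circles) in young (blue) and old (orange) monkeys. LEPR lies at 2.30 CPM over the libraries with δ-cells and at 0.791 CPM over those without, and GHR at 22.4 and 21.7 CPM.

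In δ-cells LEPR was 369 to 634 CPM in 7 young monkeys (median 534.8 CPM) and 145, 154, 326 and 807 CPM in 4 old ones. The old values were thus both the lowest and the highest, and the difference of -0.82 (SE 0.42, edgeR, adjusted p = 1) was within the spread. GHSR in δ-cells was 8.18 to 96.8 CPM in young animals and 14.4, 32.3, 39.1 and 53.8 CPM in old ones (-0.08, SE 1.03, adjusted p = 1). Each δ-cell sum held between 5 and 14 cells. In PP-cells only LEPR was tested, at -1.30 (SE 2.19, adjusted p = 0.999), with 2 young animals.

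SSTR2 in α-cells was 6.92 to 21.1 CPM in young and 5.44 to 19.5 CPM in old monkeys, which overlapped almost completely (-0.05, SE 0.25, edgeR, adjusted p = 0.983). In β-cells it was 3.09 to 13.5 CPM (median 6.43) in young and 1.21 to 8.21 CPM (median 3.45) in old animals, and the difference of -0.98 (SE 0.51, adjusted p = 0.938) did not pass. GHR in α-cells was 3.70 to 38.0 CPM in young and 9.11 to 45.6 CPM in old monkeys (0.25, SE 0.37, adjusted p = 0.923), and in β-cells it was 0.260 to 20.9 CPM and 1.02 to 27.8 CPM (0.81, SE 0.68, adjusted p = 0.992). The age effects in β- and α-cells did not differ by the test of that difference for SSTR2 (-0.79, SE 0.52, adjusted p = 0.919), GHR (0.60, SE 0.66, adjusted p = 0.974) or LEPR (1.28, SE 1.11, adjusted p = 0.964). No receptor was called for a difference of the age effect between males and females in α- or β-cells, with adjusted p of 0.93 or more and 0.00707% and 0% of all genes called.

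**Figure D5:**
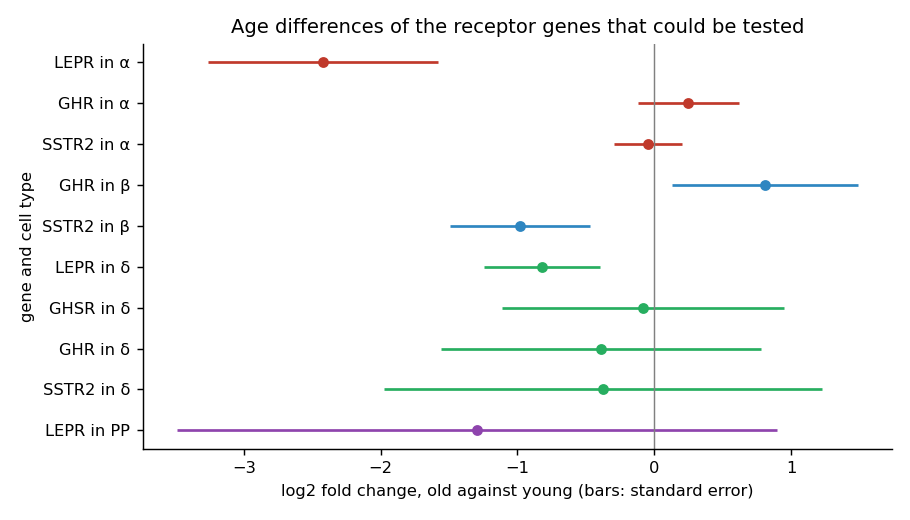
Log2 fold change of old against young monkeys for each receptor and cell type that could be tested, with bars of 1 standard error, coloured by cell type (α red, β blue, δ green, PP purple). The values run from -2.42 for LEPR in α-cells to 0.81 for GHR in β-cells, and none passed the adjusted threshold.

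The 5 cells with high GHRL were of the α type by the hormone rule and came from 4 monkeys. Of these cells 0 had a UMI of SSTR1, SSTR2, SSTR3, SSTR5, ADRA2A or MTNR1B, 2 had LEPR (6 UMIs), 2 had GHR (4 UMIs), and GHSR and PRLR had 1 UMI each in 1 cell.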

How the data were processed

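Single-cell RNA sequencing by a modified STRT protocol was analysed for 64 libraries of 16 monkeys. The deposited UMI counts were made by the authors, who trimmed the reads, aligned them to Macaca_fascicularis_5.0 with TopHat (version 2.0.12), counted uniquely mapped reads per gene with htseq-count and collapsed reads with the same UMI; no normalization was applied. The cell filter was more than 800 genes and 10000 UMIs, and type followed the highest of GCG, INS, SST and PPY. The UMIs of the filter included spike-ins, so that 45 kept cells had under 10000 UMIs of macaque genes. No doublet caller was run; cells above the 95th percentile of UMIs in their library were left out as an alternative. UMI counts, without 95 spike-ins, were summed per monkey and type (at least 5 cells). Tests on these sums used edgeR 4.0.16 under R 4.3.3 (TMM, filterByExpr, two-sided quasi-likelihood test, Benjamini-Hochberg adjustment over all genes tested, threshold 0.05): types with a term for each monkey, age with sex as covariate. DESeq2 1.42.0 was an alternative. Python 3.11.15 with scipy 1.17.1 gave exact Clopper-Pearson intervals. The fits were tested on simulated data. Between 338 and 381 cells and between 20719761 and 34053080 UMIs were kept per monkey.

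The named genes are the 10 receptors, genes from the 3 largest called of each partner list per type, and the 3 most similar genes for each tested receptor. GRK2, a called gene outside the 3 largest, is named too. The receptors and lists were chosen with earlier results of these data known. Of 58 listed partners 52 were in the files. No genome of the counting build was used, so no coordinates or sequences are given. The marker count of α-cells is not reported here.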

Additional observations from a re-analysis of the deposited data

Results flagged for a closer look

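In 18 of 46 groups of 4 to 10 monkeys of 1 age and type, 1 monkey stood apart from the others by Dixon's criterion, which chance alone would give in about 1 in 20 groups of normal values. In many of these groups the other monkeys had no UMI of the gene, so that any detection sets 1 animal apart.

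Among the better counted values, SSTR2 stood apart in PP-cells of old female 1 at 105 CPM (51 UMIs, all in 1 of 8 cells, the other old monkeys at 2.85 to 9.59 CPM) and in δ-cells of young female 2 at 114 CPM (29 UMIs, in 3 of 6 cells, the others at 0 to 47.2 CPM). LEPR stood apart in α-cells of old male 2 at 2.72 CPM (52 UMIs, the others up to 0.904 CPM), in β-cells of young female 1 at 8.56 CPM (33 UMIs, the others up to 1.61 CPM) and in β-cells of old female 2 at 2.86 CPM (14 UMIs, the others up to 0.855 CPM). Of the 33 UMIs in β-cells of young female 1, 25 lay in 1 cell, which had 3141 SST UMIs and 10 or more of RBP4. SSTR5 was found in β-cells of young male 4 at 5.43 CPM (51 UMIs, in 7 of 106 cells) and in no other young monkey.

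GHSR stood apart in β-cells of old male 1 at 2.03 CPM (12 UMIs, all in 1 cell). It also did so in α-cells of old female 1 at 0.568 CPM (8 UMIs) and in β-cells of young female 1 at 0.779 CPM (3 UMIs). SSTR3 did so in α-cells of young female 3 at 0.437 CPM (12 UMIs, all in 1 cell). In β-cells SSTR3 stood apart in young male 4 at 0.746 CPM (7 UMIs, all in 1 cell) and in old female 1 at 0.146 CPM (2 UMIs). PRLR did so in β-cells of young male 1 at 0.904 CPM (6 UMIs) and in δ-cells of young female 1 at 7.26 CPM (4 UMIs), and ADRA2A in β-cells of young male 1 at 0.452 CPM (3 UMIs) and in δ-cells of old male 4 at 2.90 CPM (2 UMIs). SSTR5 did so in α-cells of young female 2 at 0.137 CPM (3 UMIs) and in δ-cells of young male 3 at 2.13 CPM (1 UMI).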

How the results depend on the processing

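The contrasts of δ-cells with α- and β-cells kept their direction and their call for LEPR and GHSR under all 27 alternatives each, with adjusted p up to 0.00971. Counts of receptors called against the other types moved as follows: in α-cells from 1 to 2 with DESeq2 and with no filter on low counts, and in β-cells from 2 to 4 with DESeq2, to 1 with at least 10 cells per sum, and to between 1 and 3 with 1 monkey left out (1 without young female 1 or young male 2). In δ-cells the 3 became 4 with no filter, and 2 with no monkey term, with α- and β-cells reduced to the number of δ-cells (reduced cells), and without old female 2, young female 1 or young male 2. Counts of listed partners called, 11, 13, 6 and 4 in α-, β-, δ- and PP-cells, became 3, 6, 3 and 2 with reduced cells. In PP-cells they became 8 with DESeq2, 1 with cells thinned to 10000 UMIs, 7 with no monkey term and 2 to 6 with 1 monkey left out (2 without young male 1). At least 10 cells per sum left 1 PP-cell sum, and no counts of partners are given for it. Calls over all genes moved too. The main fit called 2736, 3402, 2007 and 1062 of 12899 genes in α-, β-, δ- and PP-cells. Reduced cells gave 681, 1018, 463 and 182 of 8885. DESeq2 gave 2644, 4135, 2441 and 1878 of 12899, and no monkey term 2060, 3585, 2470 and 1935. No filter gave 3095, 3134, 1797 and 889 of 18946, and thinning 576 of 9048 in PP-cells. The changes in the counts of receptors and partners are no result about these genes, and their cause was not tested. Reduced cells, at least 10 cells per sum and a left-out monkey use fewer cells or sums. DESeq2, no filter and no monkey term use the same sums as the main fit.

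Values that were not called changed sign. SSTR2 in α-cells minus δ-cells, -0.20, became 0.27 after thinning, 0.25 without cells with non-endocrine markers, 0.16 with at least 10 cells per sum, 0.64 with reduced cells, and between -0.47 and 0.19 with 1 monkey left out. LEPR in α-cells minus β-cells became -0.60 with reduced cells, and GHSR there -0.56 with no monkey term and -0.60 with reduced cells. With age, SSTR2 in α-cells became 0.019 with over 2000 genes and 20000 UMIs and lay between -0.15 and 0.081 with 1 monkey left out. SSTR2 in δ-cells lay between -0.97 and 0.42. GHR in δ-cells became 0.26 without cells with non-endocrine markers and 0.07 with at least 10 cells per sum, and lay between -2.13 and 0.33 with 1 monkey left out. GHSR in δ-cells became 0.52 without cells above the 95th percentile of UMIs and 1.13 without cells with non-endocrine markers, and lay between -0.63 and 0.38 with 1 monkey left out.

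The monkey numbers 1 to 4 are names and pair no animals: deviations of same-numbered young and old monkeys of 1 sex correlated between -0.046 and 0.161 in α-cells, over 0.1 in 1 of 8 pairs, and between -0.037 and 0.064 in β-cells. With the replicate block 0 receptors were called with age in each type, and GHSR in δ-cells became 0.56. With a leading hormone at least 4 times the next, no PP-cell sum and 2 δ-cell sums were left, so that contrasts of 1 type with the other 3 and age in δ- and PP-cells were not run.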
